A study of Mus musculus with 6 samples.

Results

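The 9 genes described here encode channels through which cells pass ions and small molecules to each other or respond to mechanical force. They are 5 connexins (Gja1, Gja4, Gja5, Gjc1 and Gjb2), pannexin 1 (Panx1) and the mechanosensitive channels Trpv4, Piezo1 and Piezo2. Members were the non-control probes that carried 1 of these names in the scanner files, which gave 10 probes for 7 genes. Piezo1 and Piezo2 stand in the files under their older symbols Fam38a and Fam38b, and their 4 probes were found through their RefSeq accessions. The set was thus 9 of 34841 gene names and 14 of the 55681 probes of the array, and each probe is described apart.

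Where a synovial joint will form, the limb skeleton is interrupted by a flat strip of tissue, the interzone. Its outer layers lie against the cartilage templates, and the intermediate layer lies between them. Total RNA of both was taken from mouse embryos at 15.5 days of gestation, with 3 intermediate and 3 outer samples, each replicate from 1 embryo per the series' design text. The labels name no strain, allele or treatment and do not say how the layers were dissected. A level is the log2 processed signal of a probe relative to that array's 75th percentile, and a difference is outer minus intermediate on that log2 scale. Levels of different probes are not comparable with each other, since each probe binds with its own strength.

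Connexins assemble into gap junctions, which join the cytoplasm of neighbouring cells, and the condensing mesenchyme of the limb is known for such coupling. Pannexin 1 forms channels that release ATP and does not usually dock to a neighbour. Trpv4, Piezo1 and Piezo2 are cation channels that let calcium in when cells are stretched, compressed or exposed to osmotic change, and Trpv4 and the Piezo channels are known for their part in how chondrocytes respond to load.

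The probes on which the results turn are shown here because the array measured only these stretches of each transcript. All are 60 bases long and are written 5′ to 3′ in lower case. The second Trpv4 probe is given whole, and of the others the first 30 bases are given. Positions are those of the probe in build mm9, as the files give them, and exon annotation was not used here.
Trpv4 first probe, chr5:115072208-115072267, minus strand: gacctgccacagatctgacctgctgcagcc
Trpv4 second probe, chr5:115072715-115072774, minus strand: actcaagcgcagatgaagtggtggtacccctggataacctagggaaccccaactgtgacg
Gja4, chr4:126988848-126988907, minus strand: acccagcgccaagttgactttcgagcctcc
Panx1, chr9:14810250-14810309, minus strand: aggacctggggcttctagagagcaagcaca
Gja5, the first probe, chr3:96857349-96857408, plus strand: ccgacactggcactaagactctctgttctg
Gja5, the second probe, chr3:96881280-96881339, plus strand: tgtgtgctttatctgtaaatattgattgca
Gja5, the third probe, chr3:96836339-96836395, plus strand: caaataacagtgggcagttgaacagcagcc
The longest run shared by any 2 of the 14 probes was 9 bases, over 91 pairs, so no member probe repeats another. The share of G and C in the 14 probes ran from 35% to 55%.

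Trpv4 was higher in the outer interzone on both of its probes, and Gja4 was higher in the intermediate interzone. Trpv4 differed 4.53-fold on its first probe and 3.96-fold on its second, and Gja4 differed 3.76-fold. Gja1, Panx1 and all 3 Piezo2 probes lay lower in the outer samples by 0.69 to 1.03 without passing the test, and the means of Gjc1 and Piezo1 lay 0.077 and 0.042 apart. Gja5 could be measured on 1 probe, whose level varied more within each layer than between them. Gjb2 was well above background on 1 array and was not tested.

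Of the 14 probes, 11 gave a signal well above background in every sample of 1 layer or both, and these were tested with limma across 23881 probes. limma called 3 of the 11 at adjusted p 0.05, against 3.48% of all tested probes. Over all probes, 317 (1.33%) lay higher in the outer samples and 515 (2.16%) in the intermediate samples, and scaling each array to its median changed this split to 183 and 1177. When replicate numbers were blocked, limma called 1723 probes (7.21%), and 4 of the 11. With the array slide as a block it called 1557 (6.52%), and 4 of the 11. Scaling to the median lowers every difference given here by 0.39. The groups did not overlap for 6 of the 11, against 26.3% of all tested probes. The 3 called probes stand for 2 genes, since both Trpv4 probes read the same transcript.

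**Figure D1:**
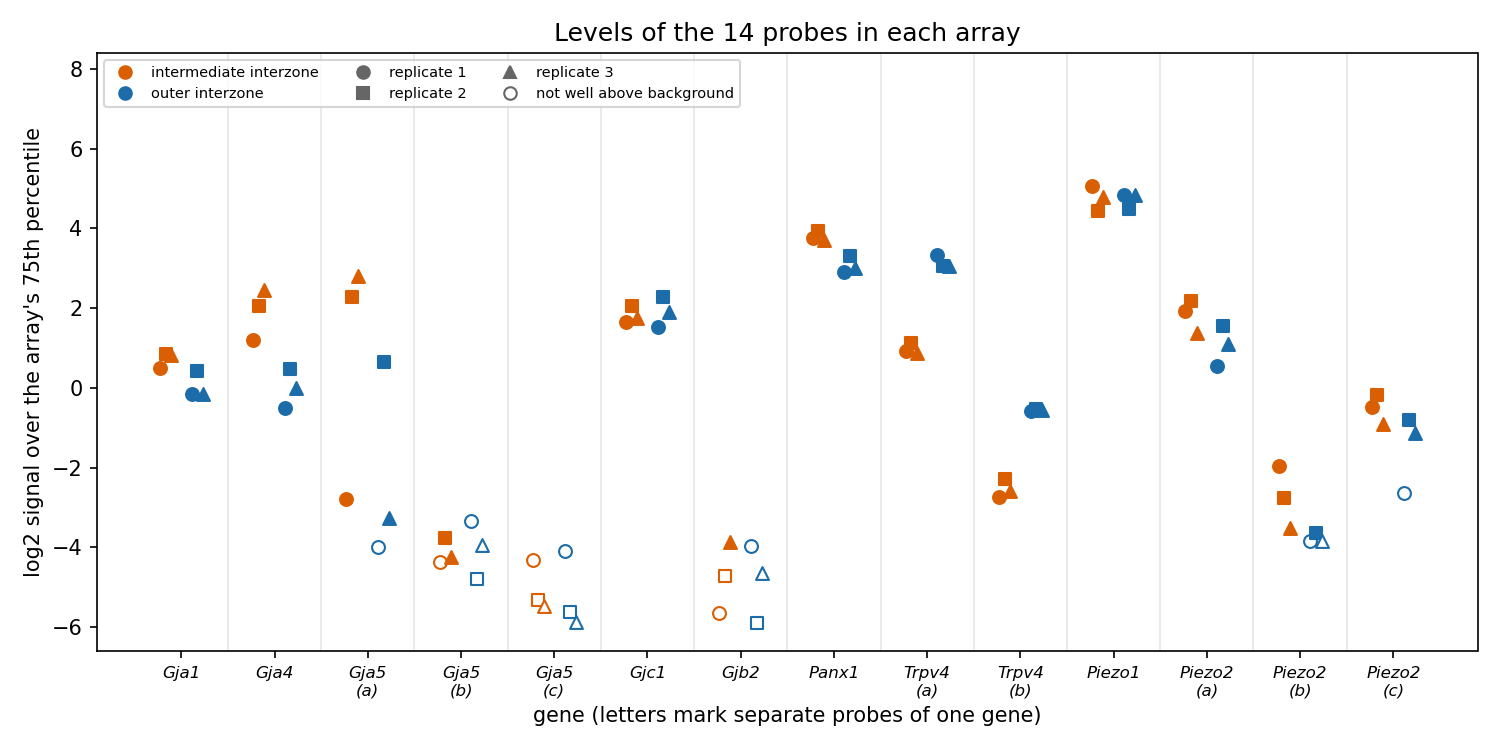
Level of each of the 14 probes in each array, as log2 signal over the array's 75th percentile, with intermediate samples in orange and outer samples in blue, the replicate number as the marker's shape, and open markers where the probe was not well above background. The outer samples lie above the intermediate ones on both Trpv4 probes and below them for Gja4, and the first Gja5 probe (a) spreads from -3.99 to 2.82.

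Trpv4 encodes a calcium-permeable channel of chondrocytes. On the first probe its level was 0.93, 1.12 and 0.88 in intermediate replicates 1, 2 and 3 and 3.34, 3.05 and 3.07 in outer replicates 1, 2 and 3. Every outer sample was above every intermediate sample, with a gap of 1.93 between the nearest ones. The outer mean was 3.15 ± 0.16 (SD, n = 3) and the intermediate mean 0.97 ± 0.13, a difference of 2.18 with SE 0.18 (95% interval 1.76 to 2.60, limma adjusted p = 0.00563). Fewer cells of a type and less RNA per cell cannot be told apart in such bulk samples.

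The second Trpv4 probe gave -2.74, -2.28 and -2.59 in the intermediate samples and -0.57, -0.54 and -0.54 in the outer samples. The outer samples lay within 0.034 of each other and again did not overlap the intermediate ones. The difference was 1.99 with SE 0.18 (95% interval 1.55 to 2.42, limma adjusted p = 0.00785). By unadjusted p the probes were the 20th and 33rd of the 23881 tested. Both probes were well above background on all 6 arrays, and leaving out any single array kept both calls (limma adjusted p = 0.00765 to 0.0485). Within the slide that held both layers, where outer replicate 1 was the only outer array, the differences were 2.37 and 1.97, and a p there rests on an arm of 1 sample. Without the filter on dim probes neither was called (limma adjusted p = 0.157 and 0.172). Normexp background correction followed by quantile normalization brought the second probe's difference to 0.96 (limma adjusted p = 0.00778).

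Cartilage markers were higher in the same outer samples. All 8 genes of the cartilage marker list were called higher in the outer interzone, with a median difference of 3.19, and their summed level ran from 521 to 780 in the outer and from 53.9 to 105 in the intermediate samples, in multiples of each array's 75th percentile. Matn1 and Snorc were well above background on 1 intermediate array each, so they entered the test through the outer samples and their sizes are uncertain. Sox9, a master regulator of chondrocyte fate, differed by 2.09 (limma adjusted p = 0.0177), close in size to Trpv4, and Col2a1, the main collagen of cartilage, by 3.19 (limma adjusted p = 0.0111). The part of cartilage cells in the Trpv4 difference was not tested.

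The other mechanosensitive channels of the set did not pass. Piezo1 (chr8:125005621-125005680), a stretch-gated cation channel of many cell types, stood at 5.07, 4.43 and 4.79 in the intermediate and 4.84, 4.48 and 4.85 in the outer samples. The groups overlapped and their means lay 0.042 apart, the outer one lower (95% interval of the difference -0.57 to 0.49, limma adjusted p = 0.936). That order turned with the slide as a block.

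Piezo2, the related channel best known for touch and body position sense, was read by 3 probes, and outer samples were lower on average on each. All 3 lay on 1 gene and are not replicates of each other. The first gave 1.93, 2.19 and 1.37 in the intermediate and 0.56, 1.54 and 1.09 in the outer samples, a difference of -0.76 (95% interval -1.51 to -0.01, limma adjusted p = 0.24). In that probe the groups overlapped, though each outer sample was below the intermediate sample of the same number. The second gave -1.95, -2.77 and -3.51 in the intermediate samples. In the outer samples it gave -3.83, -3.65 and -3.83, where 1 of 3 arrays was well above background (difference -1.03, limma adjusted p = 0.188).

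The third Piezo2 probe differed by -0.99 (limma adjusted p = 0.299), from -0.49, -0.19 and -0.91 in the intermediate to -2.63, -0.79 and -1.12 in the outer samples. The low value was that of outer replicate 1, the dimmest array, where the probe was not well above background, and without that array the difference was -0.43. With the array slide as a block it was -2.10 (limma adjusted p = 0.0209), and this fit rests on outer replicate 1 alone. Nerve markers were lower in the outer samples too. Nefl, Nefm and Prph, the 3 nerve and Schwann cell genes that could be tested of 7, were called (differences -2.53, -2.50 and -1.89). That list's summed level ran from 1.30 to 1.89 in the outer and from 5.65 to 6.55 in the intermediate samples, and 2 of its genes, Cdh19 of Schwann cell precursors among them, were not well above background on any array. The part of nerve in the Piezo2 values was not tested.

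**Figure D2:**
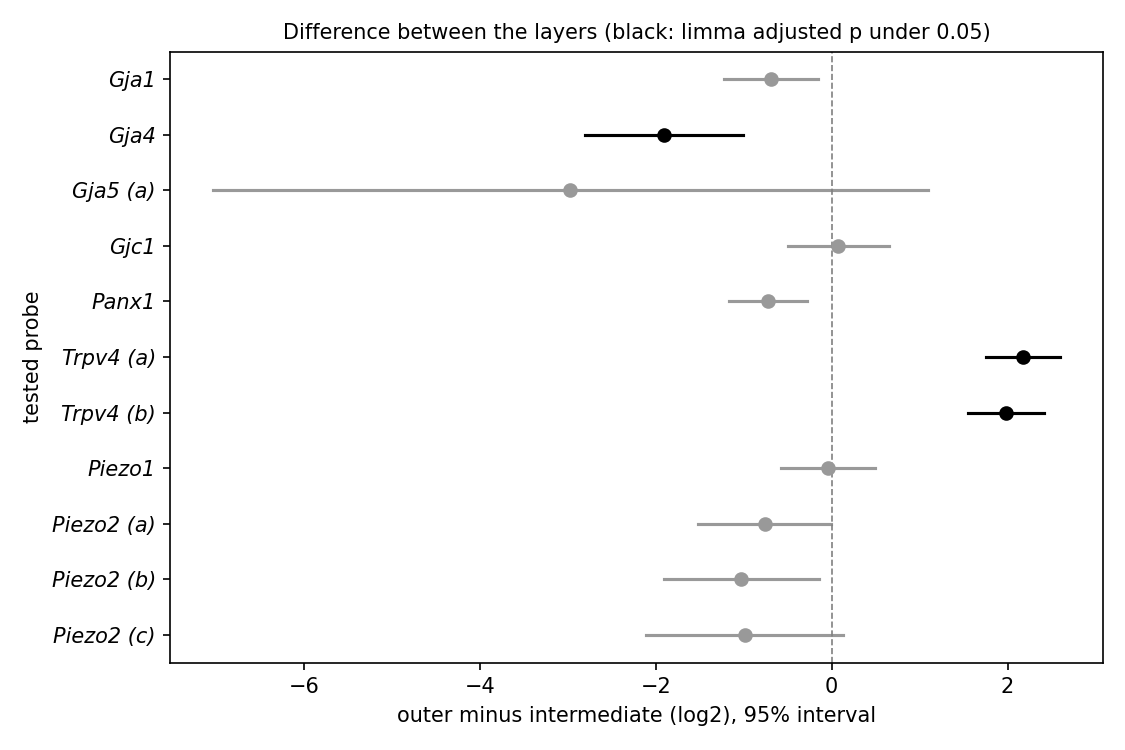
Difference of each of the 11 tested probes, outer minus intermediate in log2, as a point with its 95% interval from limma, in black where the adjusted p was under 0.05. The Trpv4 intervals (1.76 to 2.60 and 1.55 to 2.42) lie above 0 and that of Gja4 (-2.81 to -1.01) below it, while the interval of Gja5 runs from -7.04 to 1.10.

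Gja4, which encodes the connexin Cx37, is known from the endothelium of arteries. Its level was 1.19, 2.05 and 2.46 in the intermediate and -0.50, 0.47 and 0.0017 in the outer samples. Every outer sample was below every intermediate one, with a gap of 0.72. The intermediate mean was 1.90 ± 0.65 (SD, n = 3) and the outer mean -0.011 ± 0.49, a difference of -1.91 with SE 0.38 (95% interval -2.81 to -1.01, limma adjusted p = 0.0459). Within the shared slide, with outer replicate 1 as the only outer array, the difference was -2.40. The call was close to the threshold. Leaving out any array other than outer replicate 2 ended it (limma adjusted p = 0.0534 to 0.157), and so did quantile normalization (limma adjusted p = 0.0639) and testing without a filter (limma adjusted p = 0.27).

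Endothelial markers were lower in the same outer samples. Of 10 genes of the endothelial list, 7 were called lower in the outer interzone and none higher, with a median difference of -2.12. Cdh5, the cadherin of endothelial junctions, differed by -2.40 (limma adjusted p = 0.0456), and the receptor gene Tek by -2.92 (limma adjusted p = 0.00944), with 1 outer array well above background. The called genes Tie1 and Emcn were well above background on 2 outer arrays each, so they and Tek entered the test through the intermediate samples. The probes of Kdr, a receptor gene for vascular endothelial growth factor, went opposite ways. Its brighter probe, counted in the list, differed by 0.82 (limma adjusted p = 0.238) and its dimmer probe by -2.30 (limma adjusted p = 0.0405). The list's summed level ran from 54.4 to 77.3 in the outer and from 94.8 to 114 in the intermediate samples. The part of blood vessels in the Gja4 difference was not tested.

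Gja5, which encodes the connexin Cx40 of arterial endothelium and heart, was read by 3 probes that differed in what they could measure. The first gave -2.79, 2.28 and 2.82 in the intermediate and -3.99, 0.66 and -3.27 in the outer samples. Intermediate replicates 2 and 3 and outer replicate 2 were high and the other 3 samples were low, so the groups overlapped. Within the intermediate samples the level ranged 48.8-fold and within the outer samples 25.1-fold, where outer replicate 1 was not well above background. The difference was -2.97 with SE 1.73 (95% interval -7.04 to 1.10, limma adjusted p = 0.38), and with the slide as a block it was -4.76 (limma adjusted p = 0.242).

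The other Gja5 probes were close to background. The second lay between -4.36 and -3.75 in the intermediate and between -4.80 and -3.33 in the outer samples, with 2 intermediate and no outer arrays well above background. The third stayed below that mark on all 6 arrays. Neither was tested, and neither showed the high values of the first probe in the same samples. Their positions lie on both sides of the first probe, and which transcripts hold them was not examined.

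None of the 6 arterial endothelial marker genes passed in limma, and 3 of them had groups that did not overlap, against 26.3% of all tested probes. The list's median difference was -2.05, and its summed level ran from 7.03 to 13.1 in the outer and from 10.95 to 17.8 in the intermediate samples. An unadjusted limma p under 0.05 was found for 4 of its genes, against 4860 of all 23881 tested probes. These 4, Sox17, Dll4, Hey1 and Sema3g, include the 3 without overlap. Each was well above background on 2 outer arrays, so they entered the test through the intermediate samples and their sizes are uncertain. Skeletal muscle markers also varied widely within each layer, with a summed level of 1.04 to 29.5 in the outer and 6.16 to 61.9 in the intermediate samples, and limma gave none of the 7 tested an adjusted or unadjusted p under 0.05. The part of arteries or muscle in the Gja5 values was not tested.

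**Figure D3:**
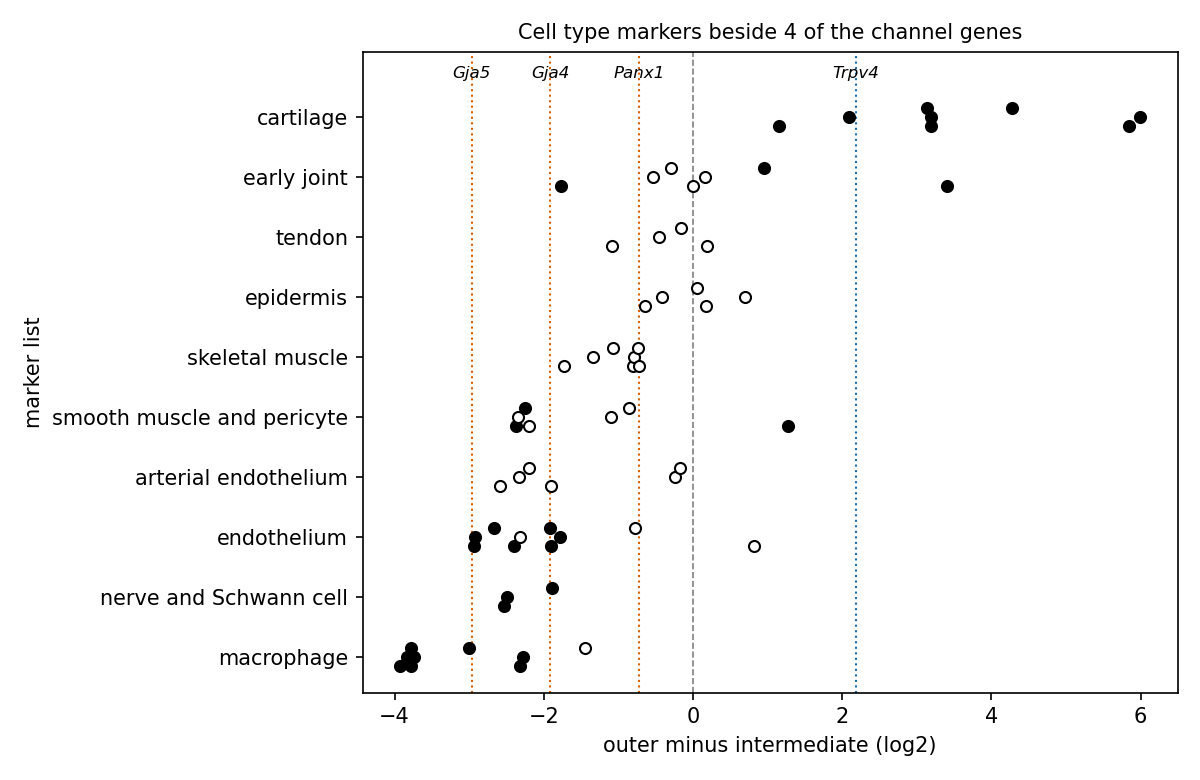
Difference of each tested cell type marker gene, outer minus intermediate in log2, 1 row per list, filled where limma's adjusted p was under 0.05, with dotted lines at the differences of Gja5 (-2.97), Gja4 (-1.91), Panx1 (-0.72) and Trpv4 (2.18, first probe). All 8 cartilage genes lie to the right of 0 and all 9 macrophage genes to its left.

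Gja1 encodes the connexin Cx43, the most widely used connexin of mesenchyme and bone. Its probe (chr10:56109814-56109873) was printed 10 times on each array, which shows the spread between spots. Spots of 1 array had an SD of 0.063 to 0.199, with the largest on outer replicate 1. The level was 0.49, 0.85 and 0.83 in the intermediate and -0.16, 0.42 and -0.15 in the outer samples. The groups did not overlap, with a gap of 0.073 between intermediate replicate 1 and outer replicate 2, smaller than the SD between samples of either layer (0.20 and 0.33). The difference was -0.69 with SE 0.23 (95% interval -1.23 to -0.15), and it did not pass (limma adjusted p = 0.157). With median scaling it was -1.08 (limma adjusted p = 0.0759).

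Gjc1, which encodes the connexin Cx45, was measured on all 6 arrays (chr11:102661010-102661069). It stood at 1.64, 2.07 and 1.76 in the intermediate and 1.53, 2.28 and 1.89 in the outer samples. The intermediate values lay within the range of the outer ones, with a difference of 0.077 (95% interval -0.49 to 0.65, limma adjusted p = 0.889). Median scaling turned that difference to -0.31 (limma adjusted p = 0.579).

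Gjb2, which encodes Cx26, an epithelial connexin, was well above background on 1 of 6 arrays, intermediate replicate 3, at -3.86 (chr14:57717629-57717688). The other samples lay between -5.89 and -3.96, and it was not tested. In the epidermal marker list, none of the 5 genes tested of 7 passed in limma, and none had an unadjusted p under 0.05. Its summed level ran from 12.6 to 27.8 in the outer and from 11.5 to 16.0 in the intermediate samples.

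Panx1 was lower in every outer sample. Its level was 3.75, 3.94 and 3.71 in the intermediate and 2.90, 3.31 and 3.01 in the outer samples. The gap between the groups was 0.39, larger than the SD within either group. The intermediate mean was 3.80 ± 0.12 (SD, n = 3) and the outer mean 3.08 ± 0.21, a 1.65-fold difference (-0.72 with SE 0.19, 95% interval -1.16 to -0.28) that did not pass over all probes (limma adjusted p = 0.0915). The same difference passed when replicate numbers were blocked (limma adjusted p = 0.047). Normexp background correction followed by quantile normalization gave -0.81, which passed (limma adjusted p = 0.0103). These were the only 2 of 16 other settings in which it was called. It did not pass with any 1 array left out (limma adjusted p = 0.0647 to 0.249), with quantile normalization alone (limma adjusted p = 0.0544) or without a filter (limma adjusted p = 0.451). Median scaling gave -1.11 (limma adjusted p = 0.0512), and the shared slide, with its 1 outer array, -0.90.

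Macrophage genes were lower in the outer samples too. All 9 macrophage markers lay lower in the outer samples and 8 were called, with a median difference of -3.74. Their summed level ran from 6.37 to 19.2 in the outer and from 59.4 to 112 in the intermediate samples. Of 7 tested smooth muscle and pericyte markers, all had an unadjusted limma p under 0.05, against 4860 of all 23881 tested probes. Of these markers 6 lay lower and 1 higher in the outer samples, with a median difference of -2.20. After adjustment 2 were called lower, Tagln and Rgs5, and 1 higher, Cspg4. Their summed level ran from 31.5 to 49.7 in the outer and from 69.3 to 75.8 in the intermediate samples. The part of these cells in the Panx1 difference was not tested.

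**Figure D4:**
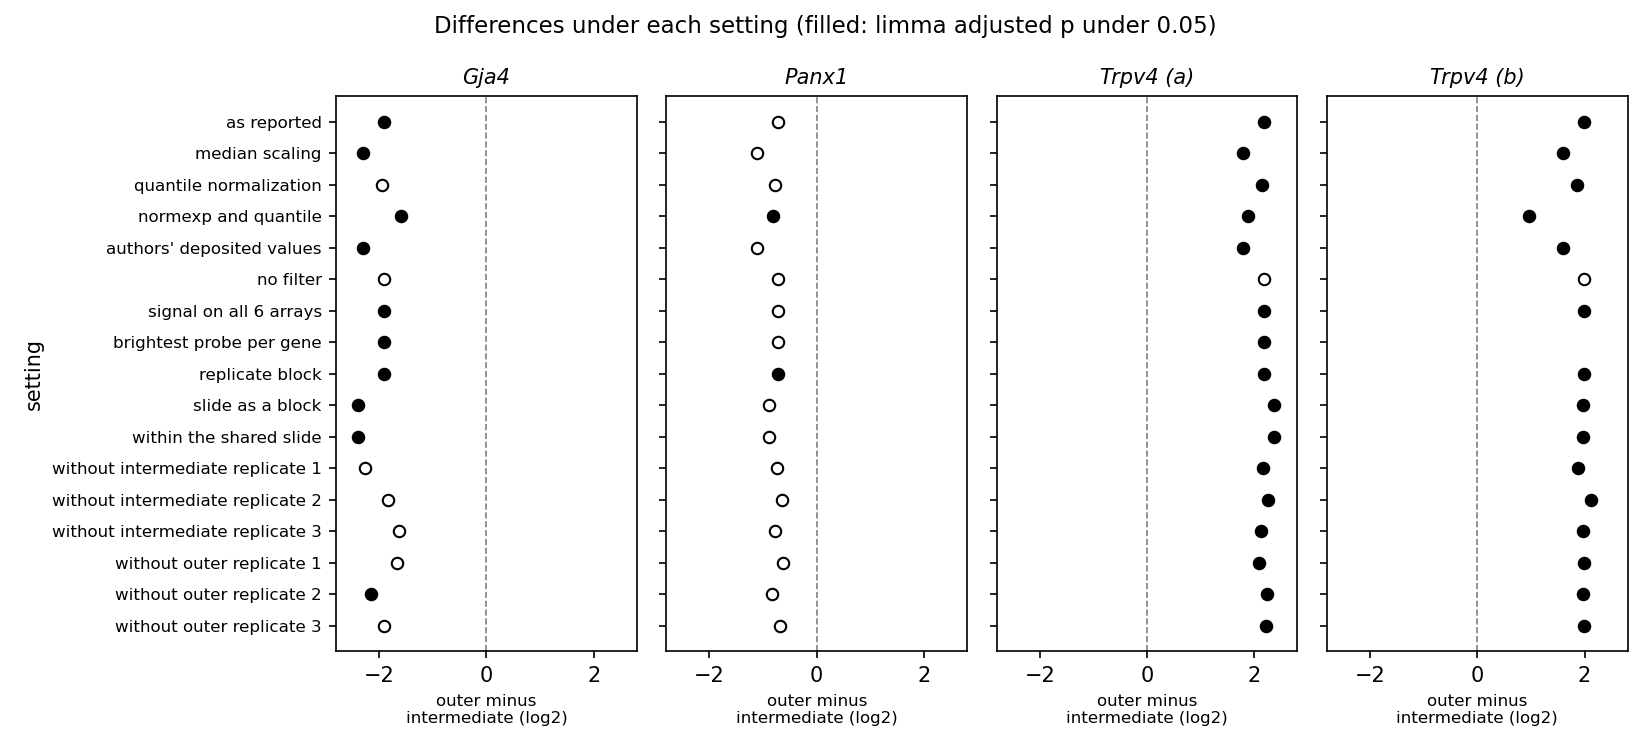
Difference (outer minus intermediate, log2) of Gja4, Panx1 and both Trpv4 probes under each processing setting, filled where limma's adjusted p was under 0.05. Both Trpv4 probes are filled in every setting in which they were fitted except without a filter, and Gja4 is filled in the reported fit and in 9 of 16 others.

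No other connexin or pannexin that could be tested was called. Of the 17 remaining connexins and pannexins, 3 could be tested, and limma gave none an adjusted or an unadjusted p under 0.05. Gjb1 was among them (0.76, limma adjusted p = 0.281), and 9 of the 17 stayed near background on all arrays. Of 18 partners and regulators of connexins 17 were tested, and limma called 1. It was Cav1, the caveolin of cell surface invaginations, with an intermediate mean of 1.66 ± 0.25 (SD, n = 3) and an outer mean of -0.26 ± 0.25 (-1.92, limma adjusted p = 0.0111). Without intermediate replicate 3 it was not called. The list's median difference was -0.29, against 0.086 over all probes. The junction scaffold gene Tjp1, whose protein binds Cx43, differed by -0.44 (limma adjusted p = 0.346).

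Of 20 other mechanosensitive and volume-sensing channel genes tested of 39 listed, 1 passed. It was Trpv2, a relative of Trpv4, which was lower in the outer samples. Its intermediate mean was -0.27 ± 0.58 (SD, n = 3) and its outer mean -2.36 ± 0.69 (-2.09, limma adjusted p = 0.0459), and it was well above background on 2 outer arrays, so it entered the test through the intermediate samples. When replicate numbers were blocked, Trpv2 was not called (limma adjusted p = 0.0522) and Lrrc8e, a subunit gene of the volume-regulated anion channel, was called higher in the outer samples (0.85, limma adjusted p = 0.0422). With signal required on all 6 arrays Trpv2 was no longer tested, and 0 of the remaining genes of the list were called. Pkd1, the volume-regulated chloride channel subunit gene Lrrc8a and Tmem63b differed by 0.20, -0.065 and 0.43 without passing. The list's median difference was 0.0082, and it was -0.38 with median scaling and -0.047 with quantile normalization. With quantile normalization 0 genes of the list were called. With the slide as a block 3 genes were called, and leaving out any array other than outer replicate 2 left 0.

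Of 20 genes of ATP release, breakdown and purinergic receptors tested of 30, limma called 2, both lower in the outer interzone. The UDP receptor gene P2ry6 was 8.62-fold lower (limma adjusted p = 0.0488) and Entpd1, an enzyme that breaks down extracellular ATP, 6.66-fold lower (limma adjusted p = 0.0243). P2ry6 was well above background on 2 outer arrays and Entpd1 on 1, so both entered the test through the intermediate samples and their sizes are uncertain. With signal required on all 6 arrays neither was tested any longer, and 0 of the remaining genes of the list were called. In the other direction, Nt5e, which makes adenosine from AMP, differed by 1.11 without passing (limma adjusted p = 0.0682). The list's median difference was -0.32, and it was 0.043 over the genes with signal on all 6 arrays. When replicate numbers were blocked 6 genes were called. The 4 lower in the outer samples were P2ry6, Entpd1, Enpp3 (-2.04, limma adjusted p = 0.0344) and Adora2a (-1.45, limma adjusted p = 0.0342). Enpp3 and Adora2a were well above background on 2 outer arrays each, so they too entered the test through the intermediate samples. The 2 higher were Nt5e (limma adjusted p = 0.0316) and the nucleoside transporter gene Slc29a1 (1.01, limma adjusted p = 0.0477). Quantile normalization called 0 genes of the list, and median scaling called 6, all lower in the outer samples. Normexp background correction followed by quantile normalization called 7, of which 5 were lower and 2 higher. Leaving out 1 array gave 0 to 4 called genes, with 0 without intermediate replicate 1, intermediate replicate 3 or outer replicate 3. All 9 macrophage markers lay lower in the same outer samples, and their part in the P2ry6 and Entpd1 differences was not tested.

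None of the 26 calcium and mechanical response genes passed in limma. Of them 4 had an unadjusted limma p under 0.05, against 4860 of all 23881 tested probes. Yap1, Ctgf and Cyr61, a mechanically regulated cofactor and its known target genes, differed by 0.035, 0.068 and 0.35 (limma adjusted p = 0.933, 0.905 and 0.465). Ankrd1 of the same list differed by -1.98 (limma adjusted p = 0.0809). It was well above background on 0 outer arrays, so it entered the test through the intermediate samples. The list's median difference was 0.0034, below 0 with median scaling. Median scaling called 2 genes of the list, quantile normalization 1 and the fit without outer replicate 2 called 1, all lower in the outer samples. Blocking replicate numbers called 2 genes, both lower in the outer samples. They were Ankrd1 (limma adjusted p = 0.0362) and Ptgs2 (-1.27, limma adjusted p = 0.0424). Ptgs2 was well above background on 2 outer arrays, so it too entered the test through the intermediate samples.

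The genes whose profile over the 6 arrays lay nearest to that of a member were found by the root mean square difference between profiles, each centred on its own mean. For Trpv4 they were Wwp2 and Ndrg2, at 0.117 and 0.120, against a size of 1.10 for the Trpv4 profile itself. For Gja4 they were Cxcl12 at 0.124 and Sox7 at 0.185, against 1.06, and for Panx1 they were Plekho1 and Fam108a at 0.0566 and 0.0579, against 0.39. For Gja1 they were Shroom2 and Smad3, at 0.0729 and 0.0762, against 0.41, and for the first Piezo2 probe Fos and Trib1, at 0.0743 and 0.110, against 0.53. For Gjc1 they were Dhx32 and Sppl3 and for Piezo1 Gnpda1 and Gpa33. For Gja5 the nearest genes, Hbb-y and Slc4a1, lay 1.36 and 1.43 away, against 2.74. Only tested probes with a RefSeq record were searched. This measure also counts the size of a profile, so a gene of similar shape but smaller swings than Gja5 would not lie near it. Likeness of shape alone was not examined.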

How the data were processed

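The 6 one-colour Agilent arrays were deposited as scanner output. The intensity used is the scanner software's processed signal, background-subtracted and detrended per the file headers (Feature Extraction 10.7.3.1, build mm9). Partek 6.11.0321 appears in the submitters' processing notes. Each column of the authors' deposited table equals this intensity divided by the array's median. The scaling percentile stood at 144 to 344 on 5 arrays and 47.4 on outer replicate 1, where 35.6% of spots were well above background, against 45.1% to 53.4%. No spot was saturated, and 3 arrays per group limit the precision.

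Spots of a probe were averaged in log2 with outlier flags left out. limma 3.58.1 in R 4.3.3 (two-sided, no block) was fitted to the 23881 probes well above background on all 3 arrays of a group, with Benjamini-Hochberg adjustment over all of them, and was tested on simulated data. Each list gene is represented by its brightest tested probe. Named genes are all members, up to 4 called genes per pathway list or else its brightest 2, and the 2 nearest profiles. Some genes that this rule names are not reported here. The other list genes given were chosen after their values were seen. Members and lists were chosen with earlier results of these data known.

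Same-numbered samples, numbered in the labels, deviated together (correlations across probes 0.54, 0.48 and 0.36, against at most 0.095 between numbers). The replicate block is therefore given where it changes a call of a member or of a pathway list gene. Calls of cell type marker genes were not examined with it. Whether a number marks the same embryo in both layers is not stated. Slide 1 held 3 intermediate arrays and outer replicate 1, and slide 2 held 2 outer arrays.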

Additional observations from a re-analysis of the deposited data

How the results depend on the processing

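Limits: outer replicate 1 was dim, so probes near background have the least certain differences, and the slide fits rest on it. The count of called probes (832) depended on the setting. It was 1360 with median scaling and with the authors' deposited values, 508 with quantile normalization, 526 with signal required on all 6 arrays, 1723 with the replicate block, 1557 with slide as a block, 1785 within the shared slide, and 75 to 1243 with 1 array left out. Without a filter limma called 0 of 55672 probes, with 5734 at unadjusted p under 0.05, and 0 member probes. The cause was not tested. The count of member probes called (3) was 2 to 4 under the other settings, and 2 to 3 with 1 array left out. Gjc1 changed sign with median scaling and the deposited values (-0.31 for both), with slide as a block and within the shared slide (-0.29 for both), and ranged from -0.11 to 0.26 with 1 array left out. Piezo1 changed sign with slide as a block and within the shared slide (0.077 for both) and ranged from -0.21 to 0.11 with 1 array left out. The replicate block (paired numbers) changed no member's call other than that of Panx1. Median scaling moved the median of all probes from 0.086 to -0.31.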
